A study of Mus musculus with 6 samples.

Results

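The peroxiredoxins and the thioredoxin system are enzymes that remove hydrogen peroxide and keep protein thiols reduced. They were followed here as 10 genes, chosen by symbol from the table of counts per gene: Prdx1 to Prdx6, the thioredoxins Txn1 and Txn2, the thioredoxin reductase Txnrd1 and the sulfiredoxin Srxn1. All 10 were among the 30438 symbols of the table, and all 10 had enough counts to be tested. RNA came from HEI-OC1, a conditionally immortalised line from the mouse organ of Corti that the labels call a cochlear stem cell, in 2 groups of 3 libraries. The first group is labelled as an Nrf2 knockout of the line and the other, the control, is the same line labelled WT. Both were grown at 33 °C, the temperature at which the line proliferates, in 10% CO2 with 10% serum and penicillin-streptomycin, and no cisplatin or other drug is recorded. The submitters asked which genes could bear on the greater cisplatin resistance of the knockout. The sources used here do not give the position of the edit or say whether the knockout line is a single clone.

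A peroxiredoxin reduces peroxide with a reactive cysteine. In the 2-Cys members (Prdx1 to Prdx5) the oxidised cysteine forms a disulfide. In Prdx1, Prdx2, Prdx3 and Prdx5 thioredoxin reduces it, and thioredoxin is recharged by thioredoxin reductase, a selenoprotein that draws on NADPH. When peroxide is high, the cysteine of Prdx1 to Prdx4 can be over-oxidised, and sulfiredoxin reverses this with ATP. Prdx6 works with a single cysteine and glutathione. Prdx1, Prdx2, Prdx6, Txn1, Txnrd1 and Srxn1 act mainly in the cytosol, Prdx3 and Txn2 in mitochondria, Prdx4 in the endoplasmic reticulum, and Prdx5 in several compartments. NRF2 binds antioxidant response elements, and Srxn1, Txnrd1, Prdx1 and Txn1 are textbook targets of it.

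The libraries labelled Nrf2 KO held between 29130007 and 51285343 counts and the control libraries between 38636523 and 44098578. Nfe2l2, the gene of NRF2, had 396, 236 and 205 CPM (counts scaled to a common library size, with TMM factors) in the libraries labelled Nrf2 KO, against 74.2, 126 and 96.7 CPM in the control libraries. Its transcript was thus higher in the group labelled as its knockout (log2 fold change 1.49, SE 0.33, adjusted p = 0.0456), so the directions below follow the labels and not this transcript. Its call was lost when any 1 library other than Nrf2 KO replicate 1 was left out, with adjusted p from 0.0784 to 0.202. Counts summed over the gene cannot show whether its product was lost. Replicate 1 labelled Nrf2 KO stood apart, with Pearson's r of log2 CPM across genes of 0.931 and 0.939 to its own group's other libraries, which had 0.995 between them. Its r to control replicate 1 was 0.938. Control replicate 1 had 0.978 and 0.988 to the other control libraries, which had 0.993 between them. The hair cell markers Atoh1, Slc26a5 and Tmc1 and the supporting cell markers Sox2 and Sox10 were at 0 counts in all 6 libraries. The 7 fibroblast and mesenchyme markers summed to between 6695 and 8800 CPM in libraries labelled Nrf2 KO and between 5634 and 6745 CPM in the control libraries. Of these, Col1a1, Col1a2, Pdgfra and Thy1 were higher, and Col3a1 had a log2 fold change of -0.66 that did not pass. Dcn lay between 0 and 0.18 CPM. The 5 leukocyte markers, with Cd3e at 0 and Cd68 and Laptm5 holding most of the sum, summed to between 3.05 and 15.1 CPM in Nrf2 KO and between 7.31 and 10.2 CPM in control libraries. Laptm5 of that list was lower, at 0.51, 0.33 and 0.56 CPM in Nrf2 KO and 3.70, 4.16 and 3.56 CPM in control libraries. Most of the sum of the 5 epithelial markers was Krt7, with Krt8 and Krt18 at 0, and they summed to between 5.40 and 7.69 CPM in Nrf2 KO and between 0.877 and 1.83 CPM in control libraries. Of the 7 hair cell markers, nearly all counts were of Myo7a, the other six being at 0.13 CPM or less, and they summed to between 15.3 and 30.1 CPM in libraries labelled Nrf2 KO and between 1.17 and 1.51 CPM in the control libraries. The 7 supporting cell markers summed to between 205 and 309 CPM in Nrf2 KO and between 160 and 196 CPM in control libraries. Jag1 held most of that sum, at 191, 139 and 146 CPM in Nrf2 KO and 114, 99.2 and 107 CPM in control libraries. Sox9 had 48.8, 29.6 and 31.4 CPM in Nrf2 KO and 9.80, 6.70 and 7.55 CPM in control libraries. Fgfr3 went the other way, at 68.9, 36.2 and 40.2 CPM in Nrf2 KO and 71.5, 53.7 and 58.4 CPM in control libraries. Prox1 and Gjb2 were near 0. For the 4 neuron markers, with Snap25 at 0 and most counts of Gap43, the sums were 0.990 to 2.60 CPM in Nrf2 KO and 6.48 to 6.63 CPM in control libraries. For the 4 endothelial markers, with Kdr at 0 and Tek the most abundant, they were 0.543 to 0.753 CPM in Nrf2 KO and 0.970 to 1.75 CPM in control libraries. The part of these cell types in the results was not tested.

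The promoters of Prdx4, the gene with the lowest ratio, and of the 4 textbook NRF2 targets are shown for comparison, from RefSeq on GRCm38.p6. Each window has 300 bases, 250 before and 50 from the annotated start of transcription. They are reference sequence and were not read from these cells. Of the 10 genes 9 had an entry. Prdx6 had none. Each window was searched on both strands for the core of the antioxidant response element in the forms TGACNNNGC and TGAGNNNGC, which capitals mark below. A match on the minus strand shows as its reverse complement. The TGANTCA site of AP-1 factors, which overlaps the element, was searched as well.
Prdx1, chr4:116685349-116685648, plus strand: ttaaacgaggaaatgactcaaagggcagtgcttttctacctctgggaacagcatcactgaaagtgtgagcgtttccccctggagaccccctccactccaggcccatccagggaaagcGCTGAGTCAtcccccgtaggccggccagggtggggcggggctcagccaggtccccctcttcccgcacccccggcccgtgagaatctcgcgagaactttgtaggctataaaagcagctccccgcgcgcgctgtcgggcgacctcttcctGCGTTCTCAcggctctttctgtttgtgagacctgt
Prdx4, chrX:155338411-155338710, minus strand: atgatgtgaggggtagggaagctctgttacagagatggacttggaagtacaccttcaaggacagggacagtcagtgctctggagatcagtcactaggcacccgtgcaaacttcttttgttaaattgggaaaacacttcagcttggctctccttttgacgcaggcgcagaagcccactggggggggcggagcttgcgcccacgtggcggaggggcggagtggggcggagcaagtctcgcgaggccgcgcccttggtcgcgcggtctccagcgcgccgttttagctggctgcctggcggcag
Txn1, chr4:57956362-57956661, minus strand: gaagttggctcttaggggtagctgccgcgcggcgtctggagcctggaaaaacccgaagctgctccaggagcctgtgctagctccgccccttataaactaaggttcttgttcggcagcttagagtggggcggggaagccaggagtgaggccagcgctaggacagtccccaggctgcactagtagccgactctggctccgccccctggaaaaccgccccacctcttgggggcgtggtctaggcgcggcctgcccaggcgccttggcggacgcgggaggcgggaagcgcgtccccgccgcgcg
Txnrd1, chr10:82858956-82859255, plus strand, 1 of 3 annotated starts: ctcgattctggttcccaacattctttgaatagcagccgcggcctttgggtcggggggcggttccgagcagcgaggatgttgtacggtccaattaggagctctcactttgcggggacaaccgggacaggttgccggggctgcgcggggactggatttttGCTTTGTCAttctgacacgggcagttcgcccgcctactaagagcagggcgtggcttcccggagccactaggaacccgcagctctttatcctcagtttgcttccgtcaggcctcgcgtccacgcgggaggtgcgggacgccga
Srxn1, chr2:152105274-152105573, plus strand: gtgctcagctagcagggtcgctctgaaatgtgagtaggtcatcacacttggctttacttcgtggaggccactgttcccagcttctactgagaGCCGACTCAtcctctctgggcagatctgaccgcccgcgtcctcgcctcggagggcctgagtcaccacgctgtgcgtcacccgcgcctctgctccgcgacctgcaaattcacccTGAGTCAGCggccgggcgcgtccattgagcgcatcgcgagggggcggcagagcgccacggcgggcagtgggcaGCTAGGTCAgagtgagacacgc

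The Prdx1 window held 1 match of each form. The first reads TGACTCAGC on the minus strand, with the leftmost base of the site 133 bases upstream of the start, and overlaps an AP-1 site. The Srxn1 window held 1 match of TGACNNNGC and 2 of TGAGNNNGC, of which TGAGTCAGC, whose first base lies 45 bases upstream, overlaps an AP-1 site. The Txnrd1 window shown held 1 match and the windows at its other starts none. The Txn2 window held 1. The windows of Prdx2, Prdx3, Prdx4, Prdx5 and Txn1 held no match. These letters are common: TGACNNNGC occurred in 12.4% of 32851 RefSeq promoter windows, TGAGNNNGC in 17.6%, either of them in 27.8% and TGANTCA in 7.81%. Over the 11464 windows of genes tested here these shares were 14.2%, 19.7%, 31% and 4.85%. A match is a run of letters and not a measured binding site.

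Per length, thioredoxin and Prdx1 were the most abundant of the 10 transcripts in both groups. The authors' deposited table gives group FPKM of 773 in Nrf2 KO and 1275 in control for Txn1, 619 in Nrf2 KO and 1145 in control for Prdx1, and 146 in Nrf2 KO and 319 in control for Prdx2. At the other end were Txn2, at 56.0 FPKM in Nrf2 KO and 66.4 FPKM in control, and Txnrd1, at 60.2 FPKM in Nrf2 KO and 44.3 FPKM in control. Srxn1 was lowest, at 23.0 FPKM in Nrf2 KO and 21.6 FPKM in control. The table has no value per library. CPM per kilobase were therefore set from the gene length that counts and FPKM imply, which between the groups had a ratio of 0.987 to 0.995.

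On that scale Prdx1 lay between 478 and 736 CPM per kilobase in the libraries labelled Nrf2 KO and between 972 and 1283 in the control libraries. Srxn1 lay between 13.5 and 29.3 in the libraries labelled Nrf2 KO and between 18.5 and 23.4 in the control libraries. In the control libraries the order was Txn1, Prdx1, Prdx2, Prdx4, Prdx3, Prdx5, Prdx6, Txn2, Txnrd1 and Srxn1. The ranges overlapped between Txn1 and Prdx1, between Prdx3 and Prdx5, between Prdx5 and Prdx6 and between Prdx6 and Txn2. The other neighbours did not overlap, Prdx4 (156 to 188) and Prdx3 (90.9 to 156) by a narrow margin. In the libraries labelled Nrf2 KO Prdx2 spanned 69.8 to 199, Prdx6 35.8 to 174, Prdx4 25.4 to 93.7 and Prdx3 26.3 to 91.9 CPM per kilobase, with replicate 1 at the low end of each range, and these 4 ranges overlapped. By group FPKM, Prdx6 ranked 4 of the 10 in the libraries labelled Nrf2 KO and 7 in the control libraries, the widest move in rank.

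**Figure D1:**
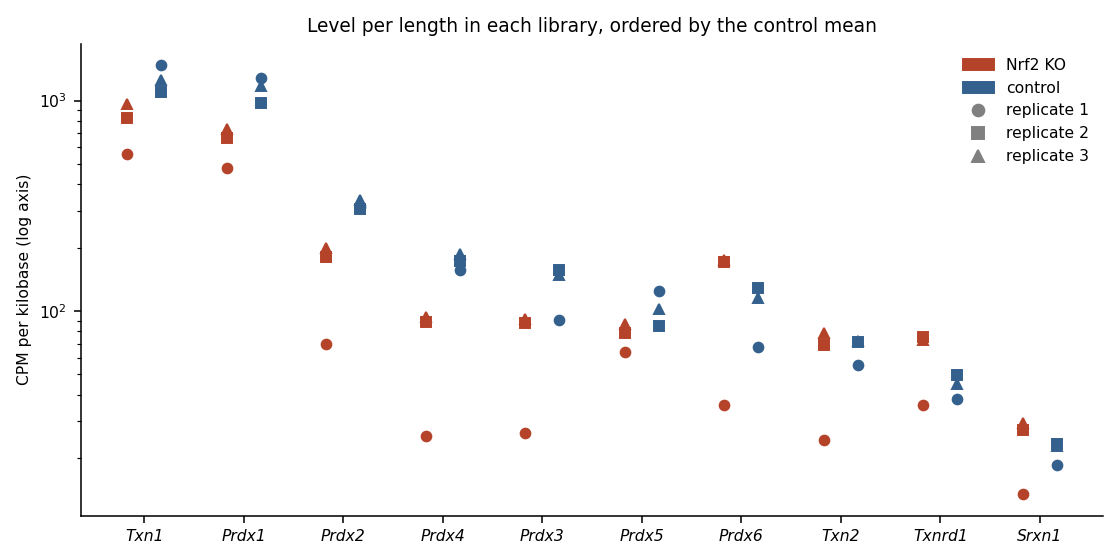
Level per length of each gene in each library, as CPM per kilobase on a log axis, with the libraries labelled Nrf2 KO left of the control libraries and 1 point per library. Txn1 and Prdx1 lie highest and Srxn1 lowest, and replicate 1 labelled Nrf2 KO (circle) is the lowest point for each gene.

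Relative to control, the 4 members Prdx1, Prdx2, Prdx4 and Txn1 were lower in every library labelled Nrf2 KO. Txnrd1, Prdx6 and Srxn1 were higher in replicates 2 and 3 and lower in replicate 1. No member passed the threshold when group alone was fitted to all 6 libraries with TMM scaling in edgeR. With Benjamini-Hochberg adjustment over 14618 genes, the quasi-likelihood test of edgeR called 0 of the 10 higher and 0 lower, where 4.83% of tested genes were higher and 3.45% lower. At an unadjusted p under 0.05 the test gave 0 higher and 4 lower, where 13.4% of tested genes were higher and 11.6% lower. DESeq2 called 0 higher (8.21% of its genes were higher) and 2 lower (6.38%), and limma-voom called 0 in either direction (5.14% higher and 4.12% lower). The groups did not overlap for 4 members, all lower, where 17.1% of tested genes were lower and 17.1% higher without overlap. The median log2 fold change of the 10 members was -0.57, against 0.04 over all genes tested.

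In each of the 10 genes replicate 1 labelled Nrf2 KO was the lowest of the 6 libraries, as it was in 32.7% of the genes tested. Without that library the remaining 5 did not overlap for 4 members that were lower and 3 that were higher, where 32.1% of tested genes were lower and 32.1% higher in this way. In the edgeR fit without it 3 members (Prdx1, Prdx2 and Prdx4) were lower and 1 (Txnrd1) higher, where 14.5% and 15.6% of genes were. Without replicate 1 of both groups 5 members (Prdx1 to Prdx4 and Txn1) were lower and 3 (Txnrd1, Prdx6 and Srxn1) higher, where 22.1% and 24% of genes were. What sets replicate 1 apart was not tested. In bulk RNA, a smaller share of expressing cells and less transcript per cell cannot be told apart.

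**Figure D2:**
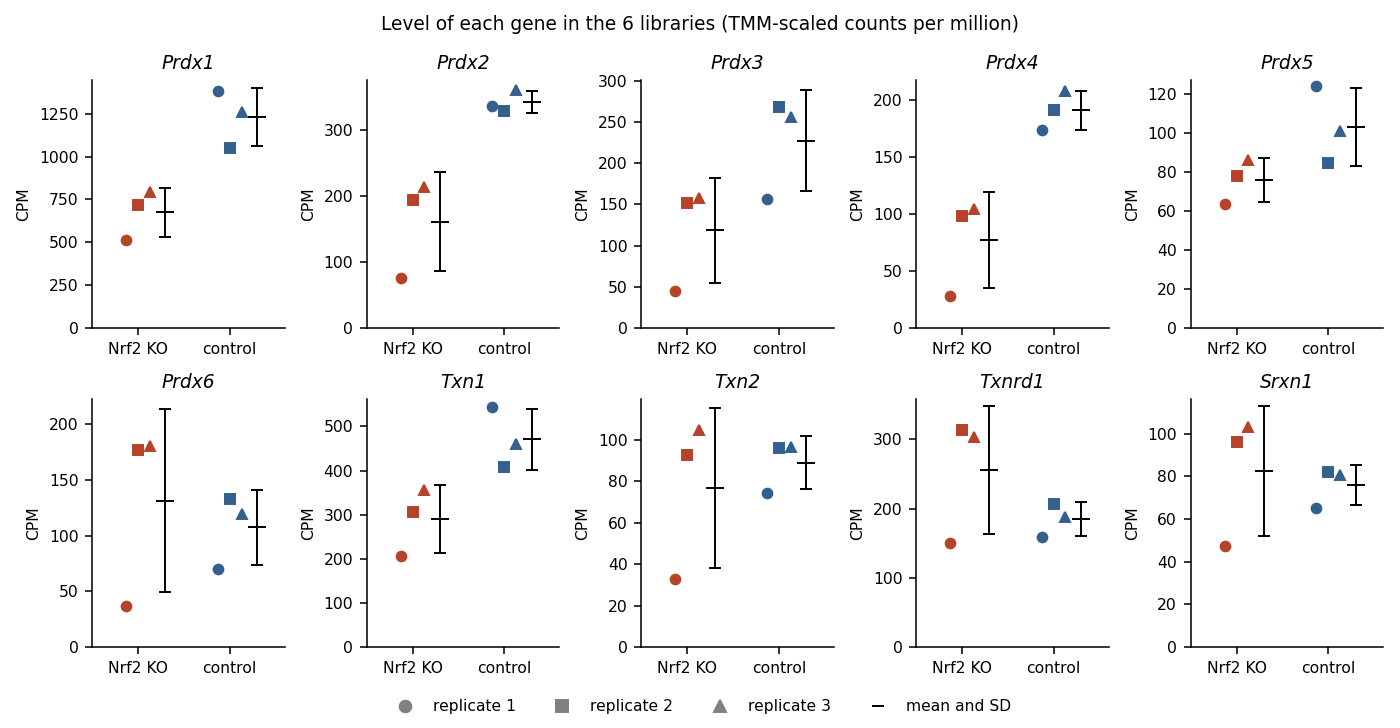
CPM of each gene in the 6 libraries, with the libraries labelled Nrf2 KO left of the control libraries; symbols mark replicates, and the bar gives mean and SD of 3. The groups are apart for Prdx1, Prdx2, Prdx4 and Txn1 and overlap for the other 6 genes.

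Prdx1, the most abundant peroxiredoxin, had 515, 717 and 794 CPM in libraries labelled Nrf2 KO and 1383, 1048 and 1261 CPM in the control libraries. The highest of the 3 labelled Nrf2 KO stayed below the lowest control. The means were 675 ± 144 CPM in Nrf2 KO and 1231 ± 170 CPM in control libraries (SD, n = 3 each), a log2 fold change of -0.87 (SE 0.24, edgeR adjusted p = 0.0785). Prdx1 was the member closest to the threshold. DESeq2 called it lower (adjusted p = 0.00690), and so did edgeR with library size alone (0.0495, where 3.66% of genes were lower and 4.42% higher), without Nrf2 KO replicate 1 (0.0232) and without replicate 1 of both groups (0.00483). Its promoter, printed above, holds the TGACTCAGC match. The windows of Prdx2, Prdx4 and Txn1, also lower without overlap, held none, while those of Txnrd1 and Srxn1 held matches. A link between such matches and the levels was not tested.

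Prdx2, the other main cytosolic peroxiredoxin and a partner of Txn1, had 75.2, 195 and 215 CPM in libraries labelled Nrf2 KO and 337, 330 and 362 CPM in the control libraries. The control libraries lay close together, while replicate 1 labelled Nrf2 KO was far below replicates 2 and 3. The log2 fold change was -1.09 (SE 0.39, edgeR adjusted p = 0.151). Without Nrf2 KO replicate 1 it was smaller and passed, at -0.75 (SE 0.12, edgeR adjusted p = 0.00678).

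Prdx4, the peroxiredoxin of the endoplasmic reticulum, where oxidative protein folding makes peroxide, had the lowest fitted ratio of the 10. It had 28.3, 98.5 and 104 CPM in libraries labelled Nrf2 KO and 174, 191 and 209 CPM in the control libraries. The groups did not overlap, and replicates 2 and 3 labelled Nrf2 KO were near to each other. The fit gave a log2 fold change of -1.31 (SE 0.47, edgeR adjusted p = 0.153), and DESeq2 called it lower (adjusted p = 0.0429). Without Nrf2 KO replicate 1 it was -0.92 (SE 0.12, edgeR adjusted p = 0.00361).

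Prdx3, which with Txn2 removes peroxide in the mitochondrial matrix, had 45.2, 152 and 158 CPM in libraries labelled Nrf2 KO and 156, 268 and 256 CPM in the control libraries. The groups overlapped through control replicate 1, and each library labelled Nrf2 KO was below the control of its own number. It had a log2 fold change of -0.94 (SE 0.49, edgeR adjusted p = 0.307). Without Nrf2 KO replicate 1 it was -0.55 (SE 0.24, edgeR adjusted p = 0.120), and without replicate 1 of both groups -0.75 (SE 0.08, edgeR adjusted p = 0.000307). With the replicate number as a block the change of Prdx3 was -1.10 (SE 0.25, adjusted p = 0.0442), the 1 member that this fit called, where it called 7.92% of genes lower and 10.4% higher.

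Prdx5, an atypical 2-Cys enzyme, had 63.7, 78.2 and 86.2 CPM in libraries labelled Nrf2 KO, against 124, 84.5 and 101 CPM in the control libraries. The groups overlapped, and the log2 fold change of -0.44 had a 95% interval of -0.93 to 0.04 (edgeR adjusted p = 0.242). None of the 15 alternatives called it.

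Prdx6, the 1-Cys member, which also has phospholipase activity, had 37.1, 177 and 181 CPM in libraries labelled Nrf2 KO and 69.8, 133 and 120 CPM in the control libraries. Replicates 2 and 3 labelled Nrf2 KO were above all 3 controls and replicate 1 was below them all. For Prdx6 the log2 fold change was 0.29 with an interval of -1.14 to 1.73 (edgeR adjusted p = 0.822). Without replicate 1 of both groups it was 0.51 (SE 0.09, edgeR adjusted p = 0.00253).

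Summed over the 6 peroxiredoxins, 0.0822%, 0.136% and 0.146% of all counts fell on these genes in the libraries labelled Nrf2 KO, against 0.228%, 0.207% and 0.230% in the control libraries. The 2 groups of sums did not overlap. Prdx1 supplied between 50.6% and 67.4% of that sum in the libraries labelled Nrf2 KO and between 51.0% and 61.6% in the control libraries. RefSeq names 5 mouse pseudogenes of Prdx1, Prdx2, Prdx6 and Txn1, none of them under that symbol in the count table. The symbols there follow rat usage, so the absence of these names does not show whether such copies were counted. The sources used here do not say how reads of such copies were counted, so the levels of these 4 genes are uncertain to that extent.

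Txn1, cytosolic thioredoxin, followed Prdx1 closely. It had 206, 307 and 357 CPM in libraries labelled Nrf2 KO and 544, 407 and 461 CPM in the control libraries, without overlap. The log2 fold change was -0.70 (SE 0.25, edgeR adjusted p = 0.155), and it passed only without replicate 1 of both groups (-0.38, SE 0.11, edgeR adjusted p = 0.0219) among the 15 alternatives. By distance between centred log2 CPM over the 6 libraries, Txn1 and Prdx1 were each other's nearest member (0.24 log2 units), as were Prdx2 with Prdx4 (0.51) and Txnrd1 with Srxn1 (0.46).

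Txn2, the mitochondrial thioredoxin, had 32.8, 92.6 and 105 CPM in libraries labelled Nrf2 KO and 74.3, 96.0 and 96.5 CPM in the control libraries. Replicates 2 and 3 labelled Nrf2 KO lay on either side of those of the control, and replicate 1 was lowest in both groups. For Txn2 the log2 fold change was -0.21, with an interval of -1.23 to 0.81 (edgeR adjusted p = 0.818).

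Txnrd1, the cytosolic reductase that recharges Txn1, had 150.0, 314 and 304 CPM in libraries labelled Nrf2 KO and 159, 207 and 188 CPM in the control libraries. Replicates 2 and 3 labelled Nrf2 KO were above every control, and replicate 1 was just below the lowest. The log2 fold change was 0.47 with an interval of -0.28 to 1.22 (SE 0.31, edgeR adjusted p = 0.419). It was 0.74 (SE 0.14, edgeR adjusted p = 0.0123) without Nrf2 KO replicate 1, the 1 member higher in that fit. Over the 6 libraries the genes most like Txnrd1, among those averaging at least 5 CPM, were Wrb, Rabgap1l and Ube2l6, at distances of 0.07, 0.08 and 0.09 log2 units, where the median over 9574 genes was 1.22.

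Srxn1, which repairs over-oxidised peroxiredoxins, had 47.5, 96.2 and 103 CPM in libraries labelled Nrf2 KO and 65.2, 82.2 and 80.5 CPM in the control libraries. Its log2 fold change was 0.12, with an interval of -0.63 to 0.86 (edgeR adjusted p = 0.867). Without replicate 1 of both groups it was 0.30 (SE 0.08, edgeR adjusted p = 0.0160). Its nearest genes were Ccnb1, Sucla2 and Cd151, at distances of 0.09, 0.10 and 0.10 log2 units.

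**Figure D3:**
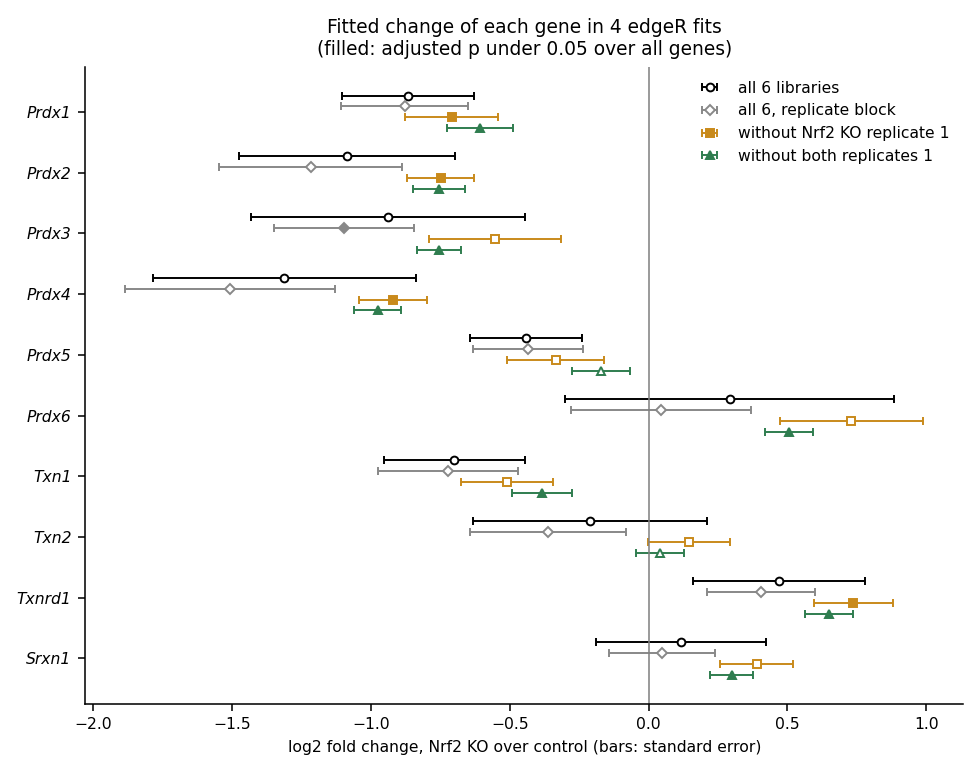
Log2 fold change of each gene, Nrf2 KO over control, with its standard error, in 4 edgeR fits; filled symbols have an adjusted p under 0.05. With all 6 libraries and no block no symbol is filled, with the block Prdx3 alone is, and without both replicates 1 there are 5 filled below 0 and 3 above.

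Set pair by pair by replicate number, 6 members (Prdx1 to Prdx5 and Txn1) were lower in all 3 pairs, where 30.5% of tested genes were, and 0 were higher in all 3, where 30.3% were. The gap was widest in pair 1. For Prdx4 the log2 ratio was -2.62 in pair 1, -0.96 in pair 2 and -1.001 in pair 3. For Prdx2 it was -2.16, -0.76 and -0.75 and for Prdx1 -1.43, -0.55 and -0.67. Txnrd1 had -0.08, 0.60 and 0.69, and Prdx6 had -0.91, 0.41 and 0.60. Pairs 2 and 3 were thus close to each other for each of these genes, and pair 1 lay below them.

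Ratios of 2 genes within a library do not depend on scaling. For 8 ratios of functional partners, chosen after the levels were seen, the log2 ratio of counts was compared between the groups. The ratio of Txnrd1 to Txn1, the reductase to its substrate, was -0.46, 0.03 and -0.23 in the libraries labelled Nrf2 KO and -1.78, -0.98 and -1.29 in the control libraries. The means differed by 1.13 on the log2 scale, and the 3 pairs differed by 1.32, 1.01 and 1.06. Replicate 1 labelled Nrf2 KO, the lowest library in CPM for both genes, lay above every control in this ratio.

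Relative to each of its 4 clients, sulfiredoxin had larger ratios in all libraries labelled Nrf2 KO than in any control library. The ratio of Srxn1 to Prdx4 was 0.75, -0.03 and -0.01 in the libraries labelled Nrf2 KO and -1.42, -1.22 and -1.37 in the control libraries, a difference of 1.57. Against Prdx2 the difference was 1.27, against Prdx3 1.15 and against Prdx1 0.92, each without overlap between the groups. These 4 ratios share the counts of Srxn1, whose own log2 fold change was 0.12 (edgeR adjusted p = 0.867). The 4 peroxiredoxins had log2 fold changes from -1.31 to -0.87, none of which passed in the main fit. The ratios restate these levels and are no separate result.

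For Txn2 to Prdx3 the difference was 0.73, also without overlap. Txn1 to Prdx1 differed by 0.15, with a mean of -1.23 ± 0.08 in the libraries labelled Nrf2 KO and -1.39 ± 0.06 in the control libraries (SD, n = 3 each). Without overlap were 7 of the 8 ratios, where 34.9% of all pairs of tested genes with counts in every library did not overlap in either direction. Since these ratios were picked with the levels in view, nothing is read from that count. Each of the 7 had p = 0.1 in a two-sided exact permutation test, the smallest that 3 against 3 libraries allow, or 0.114 adjusted over the 8 ratios, so none can pass 0.05. Txnrd2, the mitochondrial reductase, relative to Txn2 was 0.20, -1.95 and -2.11 in the libraries labelled Nrf2 KO and -1.63, -1.90 and -1.95 in the control libraries, so its difference of 0.54 (exact permutation p = 0.9) rested on replicate 1, and without it was -0.20.

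**Figure D4:**
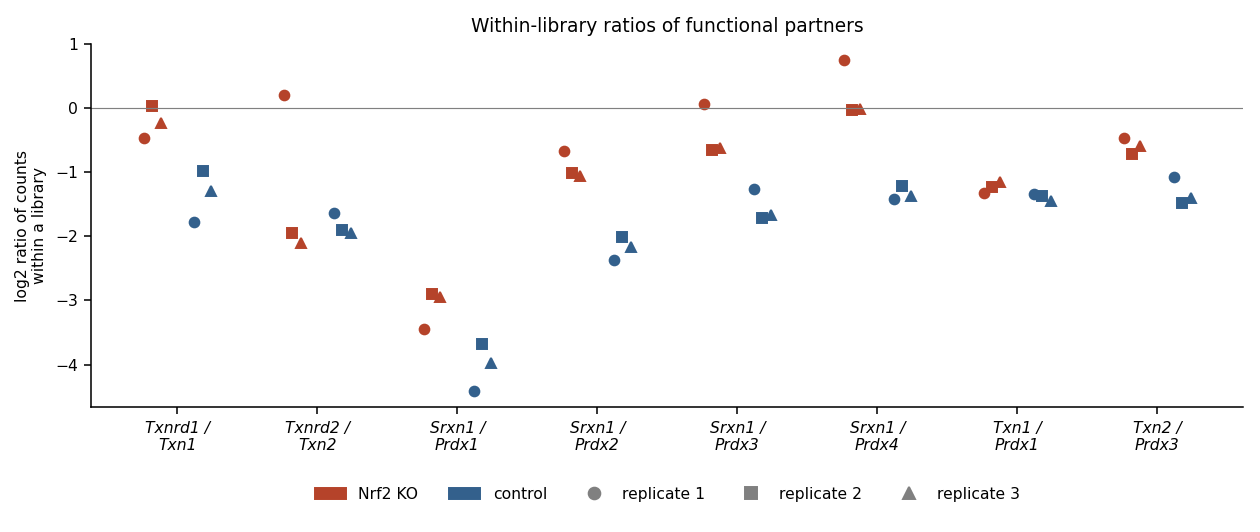
Log2 ratio of the counts of 2 partner genes within each library, with the libraries labelled Nrf2 KO left of the control libraries and 1 point per library. The groups are apart in 7 of the 8 ratios, which were picked with the levels in view, against 34.9% of all pairs of genes; for Txnrd2 to Txn2, replicate 1 labelled Nrf2 KO lies alone at 0.20.

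Around these members, 56 further genes of thiol and peroxide handling were followed in 8 lists, and 55 had enough counts to be tested. Of these, 2 were higher and 4 lower (4.83% and 3.45% of all tested genes), and with the replicate block 3 and 6 (10.4% and 7.92%). Of 19 thioredoxin-like and partner genes, 0 were higher and 2 lower, with a median log2 fold change of -0.15. Txnip, which binds and inhibits thioredoxin, had 18.7, 21.1 and 20.5 CPM in libraries labelled Nrf2 KO and 36.7, 34.8 and 36.7 CPM in the control libraries. It fell by 0.84 on the log2 scale (SE 0.14, edgeR adjusted p = 0.0169), and here replicate 1 lay with the rest of its group. Txnl1, a thioredoxin-like protein bound to the proteasome, had 102, 163 and 170 CPM in libraries labelled Nrf2 KO and 336, 326 and 349 CPM in the control libraries (log2 fold change -1.21, SE 0.23, edgeR adjusted p = 0.0288). With the block Txnl4a and Tmx3, named after their values were seen, were lower as well (adjusted p = 0.0165 and 0.0357).

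Sesn3, a sestrin, of a stress-induced family that restrains mTORC1, had 73.0, 104 and 89.4 CPM in libraries labelled Nrf2 KO and 227, 254 and 231 CPM in the control libraries. It was the member of these lists with the largest fall (log2 fold change -1.42, SE 0.18, edgeR adjusted p = 0.00841), and the other two sestrins did not pass, with a median of 0.39 over the 3. Msrb3, a methionine sulfoxide reductase whose human gene is linked to inherited deafness, had 93.1, 125 and 124 CPM in libraries labelled Nrf2 KO and 49.4, 62.3 and 55.5 CPM in the control libraries. It rose by 1.03 on the log2 scale (SE 0.18, edgeR adjusted p = 0.0218), the 1 of 3 tested genes of its list to pass, where the median was 0.49. Gpx8, a peroxidase of the endoplasmic reticulum, averaged 471 ± 48.3 CPM in libraries labelled Nrf2 KO and 256 ± 44.8 CPM in the control libraries (SD, n = 3 each; log2 fold change 0.88, SE 0.20, edgeR adjusted p = 0.0477). Prdx4, of the same compartment, had a log2 fold change of -1.31 and did not pass. Among the 6 genes of glutathione reductase and glutathione peroxidases Gpx8 was the only call, and the median log2 fold change was 0.28.

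The selenocysteine machinery, which supplies the active residue of the thioredoxin reductases, had 1 lower and 0 higher of 8 and a median log2 fold change of -0.14, and with the block Sepsecs, named after its values were seen, was higher (adjusted p = 0.0246). Sephs1 averaged 92.4 ± 7.43 CPM in libraries labelled Nrf2 KO and 157 ± 12.4 CPM in the control libraries (SD, n = 3 each; log2 fold change -0.76, SE 0.15, edgeR adjusted p = 0.0287). Sephs2, named after its values were seen, did not pass (log2 fold change -0.52, SE 0.36, edgeR adjusted p = 0.439). The supply of selenocysteine was not tested, and nothing about it is read from Sephs1. None of 4 glutaredoxins passed edgeR's threshold (0 higher and 1 lower at an unadjusted p under 0.05, median -0.50), with log2 fold changes of -0.77 for Glrx3 (SE 0.33) and -0.23 for Glrx2 (SE 0.14). None of 7 thioredoxin clients passed (0 and 0 at an unadjusted p under 0.05, median -0.19). They include ribonucleotide reductase, which takes its electrons from thioredoxin, with Rrm2 at 0.82 (SE 0.48) and Rrm1 at -0.19 (SE 0.41). Nor did any of 5 mitochondrial peroxide and NADPH genes (0 and 0, median 0.10), with Sod2 at -0.33 (SE 0.48) and Glud1 at 0.35 (SE 0.35). Without Nrf2 KO replicate 1, Glrx3 (-0.48, edgeR adjusted p = 0.0323), Rrm2 (1.19, edgeR adjusted p = 0.0155) and Glud1 (0.66, edgeR adjusted p = 0.0211) passed, as they did without replicate 1 of both groups. In the first of these fits 15.6% of all tested genes were higher and 14.5% lower, and in the second 24% and 22.1%. Glud1 was 0.16 without Nrf2 KO replicate 2, 0.18 without replicate 3 and 0.25 without control replicate 1, and passed in none of these. Over the 55 genes DESeq2 called 3 higher and 6 lower, beside 8.21% and 6.38% of all its genes, and limma-voom 2 higher and 4 lower, beside 5.14% and 4.12%.

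Calls in these lists, as among the members, moved with the libraries. Txnip, Txnl1, Msrb3 and Sephs1 each kept their direction in all 15 alternatives and lost the call in 5, the fits without any 1 library other than Nrf2 KO replicate 1, with adjusted p up to 0.165. Sesn3 lost it in 3 of these, without Nrf2 KO replicate 3 and without control replicates 2 or 3, with adjusted p up to 0.0642, and Gpx8 in 8 of the 15, up to 0.236.

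**Figure D5:**
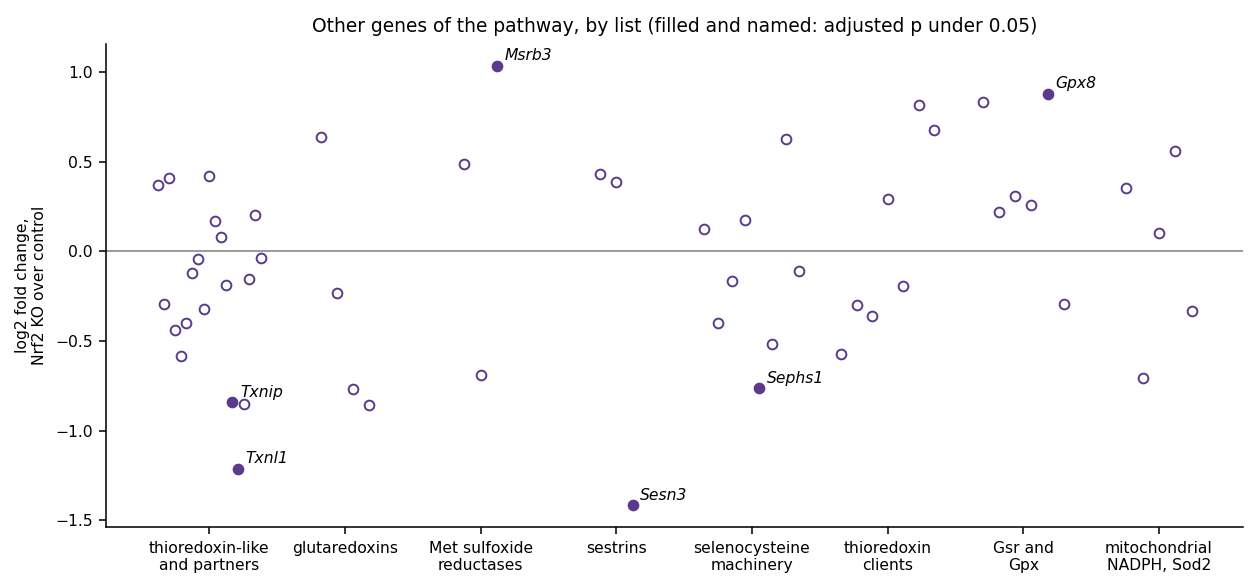
Log2 fold change, Nrf2 KO over control, of the 55 tested genes of 8 lists around the thioredoxin system, 1 point per gene. The 6 filled and named genes have an adjusted p under 0.05, with Msrb3 and Gpx8 above 0 and Txnip, Txnl1, Sesn3 and Sephs1 below.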

How the data were processed

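Poly(A)-selected RNA was sequenced from 3 libraries labelled Nrf2 KO and 3 control libraries. HISAT2, fastp, FastQC, DESeq2 1.34.0 and the build hg18 are named, without roles, per the submitters' processing notes. The sources used here give no counting tool, strand setting or annotation. The table's symbols follow rat usage while the cells are of mouse. The genome behind the counts and the implied gene lengths is thus not known, and the levels of all genes are uncertain to that extent. The authors deposited counts as whole numbers per gene symbol and library, and a second table of FPKM as 1 value per group.

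The test of counts was edgeR 4.0.16 under R 4.3.3: filterByExpr by group (minimum count 10, total 15), TMM, and a robust quasi-likelihood model of group. Tests were two-sided, with Benjamini-Hochberg adjustment over all genes tested and a threshold of 0.05. The procedure was checked on counts drawn with known changes and the same spread setting for every gene. No drawn library was set apart as Nrf2 KO replicate 1 was, so the check does not cover that case. Log2 CPM for distances and correlations had a prior count of 2. Levels per length are CPM over the length implied by deposited counts and FPKM. DESeq2 1.42.0, limma-voom 3.58.1, other scalings and filters, and fits without libraries were alternatives.

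Named were the 10 members, Nfe2l2, in each list up to 4 called genes of smallest p or else the 2 of highest CPM, and the 3 genes nearest to Txnrd1 and Srxn1. Members and lists were chosen with earlier results of these data known. The labels do not say that replicates were separate cultures, so p-values reflect only the spread of these libraries, which may be technical. Deviations of same-numbered libraries from their group means correlated across genes at 0.754, 0.696 and 0.310, all above 0.1. Same numbers were therefore treated as pairs in the replicate block and in comparisons pair by pair, a reading of the counts that no label states. The main fit had group alone and did not use this pairing. The pairing of numbers 2 and 3 is the less clear: Nrf2 KO replicate 3 correlated at 0.539 with control replicate 2, and Nrf2 KO replicate 2 at 0.278 with control replicate 3. Between libraries of a group, chi-square per degree of freedom was at least 14.3, so none was counted as a duplicate.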

Additional observations from a re-analysis of the deposited data

How the results depend on the processing

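No alternative reversed the direction of Prdx1 to Prdx5, Txn1 or Txnrd1. Reversed were Prdx6 without Nrf2 KO replicate 3 (log2 fold change -0.0026), Srxn1 without Nrf2 KO replicate 2 (-0.0095) or 3 (-0.078), Txn2 without Nrf2 KO replicate 1 (0.15), Rrm1 (0.15) and Sod2 (0.063) in the same fit, and Txn2 (0.041) and Rrm1 (0.011) without replicate 1 of both groups. The Txnrd2 to Txn2 ratio reversed without Nrf2 KO replicate 1 (-0.20) and without both (-0.10). Over the fits that left out 1 library, Prdx6 ranged from -0.0026 to 0.73, Srxn1 from -0.078 to 0.39, Txn2 from -0.50 to 0.15, Rrm1 from -0.41 to 0.15, Sod2 from -0.58 to 0.063 and the ratio from -0.20 to 0.96. The cause was not tested.

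Of the 10 members, 0 were called higher and 0 lower with all libraries. DESeq2 called 2 lower, library size alone 1 and the replicate block 1, and the block changed no other member's call. Leaving out 1 library gave 0 to 1 higher and 0 to 3 lower, and leaving out replicate 1 of both groups 3 and 5. In the 8 lists the main counts were 2 higher and 4 lower. Upper-quartile scaling gave 1 higher and 5 lower, where 4.31% and 4.08% of all genes were. Library size alone gave 1 and 4 (4.42% and 3.66%), and no filter 1 and 4 (2.85% and 1.98%). Leaving out 1 library gave 0 to 9 higher, where 0.925% to 15.6% of all genes were, and 0 to 10 lower, where 0.379% to 14.5% were. Leaving out both replicates 1 gave 16 and 14, beside 24% and 22.1%. Over all genes the main counts were 706 and 505. DESeq2 gave 1420 and 1103, the block 1520 and 1158, leaving out 1 library 139 to 2323 and 57 to 2162, and leaving out both replicates 1 gave 3540 and 3253. Nfe2l2 kept its direction throughout and passed in 8 of 15 alternatives. It did not pass with upper-quartile scaling (1.45) or library size alone (1.499), nor without any 1 library other than Nrf2 KO replicate 1, with 1.15 to 1.71 over the fits that left out 1. The median over all tested genes stayed between -0.02 and 0.05. That of the 10 members moved more, from -0.71 without Nrf2 KO replicate 3 to -0.28 without replicate 1 of both groups. Without Nrf2 KO replicate 1 alone it was -0.42, against -0.57 in the main fit. The lowest count of a member was 887, for Prdx4 in Nrf2 KO replicate 1.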
